A study of Mus musculus with 16 samples.

Results

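The 7 enzymes of heme synthesis described here, Alas2, Alad, Uros, Urod, Cpox, Ppox and Fech, were taken by symbol, and all 7 were among the 25239 genes of the authors' deposited RNA table. Heme, the iron-holding ring of hemoglobin, is built partly in mitochondria and partly in the cytosol. The pathway begins and ends in the mitochondrion, and its largest consumer is the developing red cell of the bone marrow. The intermediates between the first and the last step are porphyrin precursors, which accumulate in the porphyrias when an enzyme is deficient.

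Messenger RNA levels and N6-methyladenosine (m6A), a methyl mark on adenosines inside RNA, were measured in bone of wild type mice after sham operation (titled NC) or ovariectomy (titled OVX), the removal of the ovaries. Each arm gave 4 input libraries and 4 IP libraries (immunoprecipitated, RNA pulled down with an antibody to m6A), 16 altogether. The treatment field of the labels reads ovariectomy also for the 4 IP libraries titled NC, and the titles were followed. The sources used here do not give age, strain or time after surgery. They do not say either whether each library came from its own animal, so the p-values measure only the spread between these libraries, which may be technical. The deposited tables hold comparisons between arms, with 1 value per gene or peak and none per library. Neither states which arm is the numerator, so fold changes are given as positive or negative, on the log2 scale, and never as higher or lower after ovariectomy. Markers of bone were present beside those of other tissues: the 8 osteoblast markers made up 0.603% of the summed mean counts in the authors' deposited table, the 22 red cell markers 1.19%, the 8 neutrophil markers 1.66% and the 9 skeletal muscle markers 1.85%. Mean normalized counts of the osteoblast markers ran from 482 for Sp7 to 99868 for Col1a1 in the authors' deposited table.

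Alad, Uros, Cpox and Ppox, 4 of the 7 enzymes, were called positive in the authors' deposited table (a positive fold change with an adjusted p under 0.05), and none was called negative. Over all 15396 tested genes, the share in the authors' deposited table was 6.07% positive and 6.11% negative. Among the 3651 tested genes with a mean count at or above that of Uros, the lowest of the 7, 10.1% were called positive and 5.89% negative in the authors' deposited table. The called enzymes differed by 1.34 to 1.49 times between the arms. The enzymes of the first and the last step, Alas2 and Fech, were close to 0, and Urod was positive without passing. The median over the 7 was 0.42 in the authors' deposited table, against -0.02 over all tested genes. P-values were also taken from a t distribution with 6 degrees of freedom on the same Wald statistic, in place of the normal one. Then 0 of the 7 and 0 of all tested genes passed after adjustment, though 4 of the 7 had an unadjusted p under 0.05. The degrees of freedom behind the deposited SE are not given, so 6 was an assumption and may be too strict. In bulk tissue, a different number of red cell precursors and a different amount of RNA per precursor cannot be told apart.

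**Figure D1:**
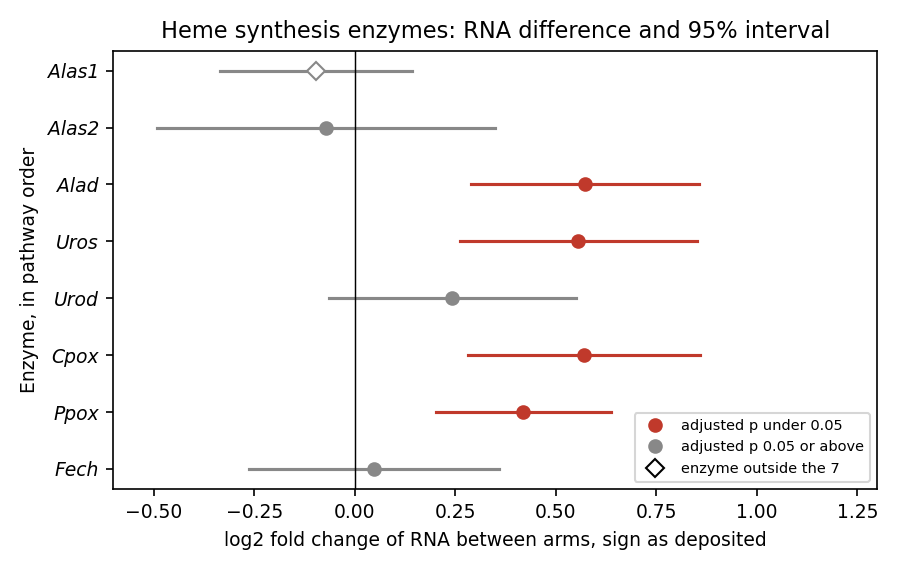
Fold change of RNA between arms (log2, sign as deposited) for each of the 7 enzymes and Alas1, in pathway order from top to bottom, with 95% intervals from the deposited standard error. Filled circles are the 7 enzymes, the open diamond is Alas1, and red marks an adjusted p under 0.05. Intervals of Alad, Uros, Cpox and Ppox lie above 0, and those of Alas2, Urod and Fech cross it.

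Alas2 is the red cell form of aminolevulinate synthase, which joins glycine and succinyl-CoA in the mitochondrion and sets the pace of the pathway in erythroid cells. Its mean normalized count was 83914 in the authors' deposited table. Mean and fold change together imply about 81853 counts in the numerator arm and 85975 in the other, if each arm gave 4 libraries of equal weight. The fold change of Alas2 was -0.07 ± 0.21 (SE; adjusted p = 0.876) in the authors' deposited table. Its 95% interval ran from -0.49 to 0.35 and did not reach the point values of Alad, Uros, Cpox or Ppox. At this SE a call needed an absolute value of about 0.59. The SE of Alas2 was the largest of the 7, and 85.4% of the 500 tested genes nearest to it in mean count had a smaller one. Alas1, the housekeeping form of the same enzyme found in most tissues, had -0.10 ± 0.12 (adjusted p = 0.661) in the authors' deposited table.

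Alad condenses aminolevulinate into the pyrrole porphobilinogen and is a step blocked by lead. It had a mean normalized count of 3085 and a fold change of 0.57 ± 0.14 (adjusted p = 0.00233) in the authors' deposited table. The implied arm means were 3690 and 2481 counts, a ratio of 1.49 (95% interval 1.22 to 1.81). Uros closes the linear tetrapyrrole into uroporphyrinogen III, the isomer that leads to heme. Its mean count was 2746 and its fold change 0.56 ± 0.15 (adjusted p = 0.00476) in the authors' deposited table, with implied arm means of 3269 and 2223. The 2 enzymes thus differed between arms by nearly the same ratio, 1.49 and 1.47.

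Urod removes carboxyl groups from uroporphyrinogen and is the last of the cytosolic enzymes. It had a mean count of 13218 and a fold change of 0.24 ± 0.16 (adjusted p = 0.331) in the authors' deposited table. Its interval of -0.06 to 0.55 held both 0 and the values of Ppox. A call would have needed an absolute value of about 0.43 at the SE of Urod.

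Cpox and Ppox carry out the successive oxidations that yield protoporphyrin at the mitochondrion. Cpox had a mean count of 18622 and a fold change of 0.57 ± 0.15 (adjusted p = 0.00304) in the authors' deposited table. The implied arm means of Cpox were 22259 and 14985, a ratio of 1.49 (95% interval 1.22 to 1.81). Ppox had a mean count of 2994 and 0.42 ± 0.11 (adjusted p = 0.00403) in the authors' deposited table, with implied arm means of 3426 and 2562 and a ratio of 1.34 (95% interval 1.15 to 1.56). Ppox had the smallest SE of the 7, close to the median of 0.11 among the 500 genes nearest in mean count.

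Fech, ferrochelatase, inserts iron into protoporphyrin at the inner mitochondrial membrane and completes heme. It had a mean count of 24258 and a fold change of 0.05 ± 0.16 (adjusted p = 0.890) in the authors' deposited table. The implied arm means of 24659 and 23857 were nearly alike, and the interval ran from -0.26 to 0.36. Like that of Alas2, it stopped short of the 4 called point values. Mean counts are not divided by transcript length, so they do not rank the enzymes by abundance.

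Whether the called enzymes differed from the uncalled ones could not be tested, because the covariance of 2 genes over the libraries cannot be had from 1 value per gene. The 12 differences between a called and an uncalled enzyme, pairs chosen after their values were seen, ran from 0.18 (Ppox minus Urod) to 0.64 (Alad minus Alas2). For Alad minus Alas2 the SE lies between 0.07, if the errors of the 2 genes move fully together, and 0.36, if they are fully opposed. The 95% interval is 0.51 to 0.78 in the first case and -0.06 to 1.35 in the second. With opposed errors, none of the 12 intervals lay above 0. With errors that move fully together, the lowest interval, that of Ppox minus Urod, was 0.09 to 0.27. Which case is nearer cannot be told from these values.

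**Figure D2:**
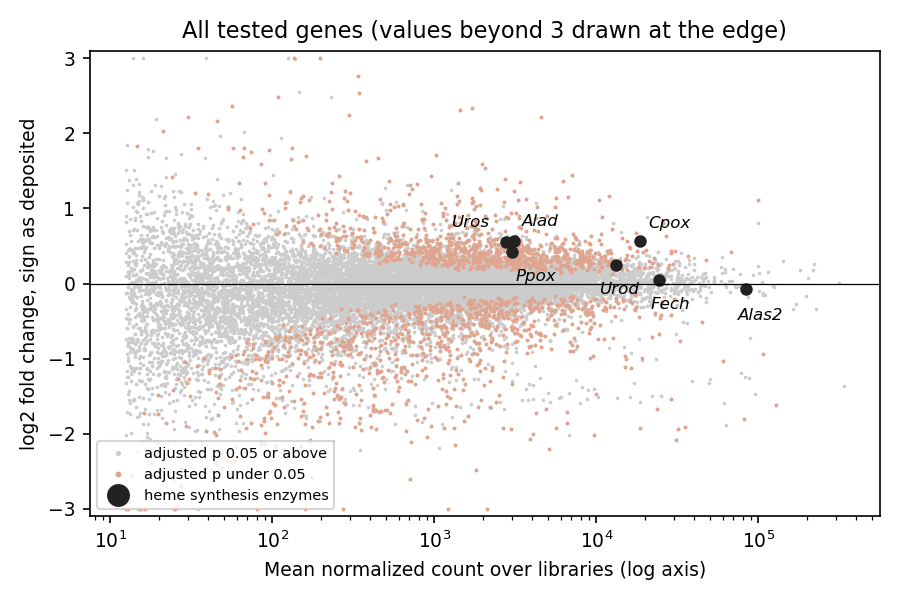
Fold change (log2, sign as deposited) against the mean normalized count on a log axis for all 15396 tested genes, with the 7 enzymes as black points. Alad, Uros and Ppox lie together at means of 2746 to 3085, Cpox lies at a like fold change and a mean of 18622, and Alas2 and Fech lie near 0.

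The promoters of the enzymes are shown because 4 of the 7 genes had positive calls. The red cell factors GATA1 and KLF1 are known to bind sites of the kind searched here. RefSeq windows on GRCm38.p6, from 250 bases before to 50 after an annotated start, matched 6 of the 7 enzymes, with 8 windows in all. Alad and Uros had a pair of windows each, and Fech had none in the table used. The words searched on both strands were AGATAA of the GATA type, its variant TGATAA, and CACCC of the KLF type. At least 1 of the 2 GATA words stood in 3 of these 8 windows, of Alas2, Cpox and Uros, and in 18.6% of all 32851 windows. CACCC stood in 4 of the 8, of Alad, Alas2, Cpox and Urod, a share below the 57.5% of all windows. The sequences below run 5′ to 3′ on the strand of the gene, with matches to any of the 3 words, on either strand, in capitals. Adjacent matches join into 1 run of capitals.
Cpox, chr16:58669958-58670207, plus strand: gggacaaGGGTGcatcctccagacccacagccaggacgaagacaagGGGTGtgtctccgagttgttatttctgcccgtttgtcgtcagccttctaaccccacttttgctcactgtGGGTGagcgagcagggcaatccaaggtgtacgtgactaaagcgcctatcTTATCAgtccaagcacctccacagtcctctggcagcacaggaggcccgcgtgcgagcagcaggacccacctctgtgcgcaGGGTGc
Alas2, chrX:150547167-150547416, plus strand: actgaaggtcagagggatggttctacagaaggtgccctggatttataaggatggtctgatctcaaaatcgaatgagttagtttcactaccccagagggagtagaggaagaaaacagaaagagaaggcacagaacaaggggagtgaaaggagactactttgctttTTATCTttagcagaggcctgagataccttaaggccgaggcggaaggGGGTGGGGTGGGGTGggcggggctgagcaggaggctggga
Uros, chr7:133702551-133702580, minus strand: tctccctcagccTTATCAgtgacagagggc

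The Cpox and Alas2 stretches are the 250 bases before the start, and the Uros stretch is 30 bases around the match in the window of the inner of its annotated starts. A GATA word began 86 bases before the start in both Cpox and Alas2, and 68 bases before it in Uros. Cpox had another, AGATAA on the opposite strand, from base 5 after the start, beyond the stretch shown. Cpox and Uros had positive calls, and Alas2, with the same kind of match, stood at -0.07 in the authors' deposited table. Alad and Ppox, also called, had no GATA word in their windows. A match is a string of letters in a window, and no binding was measured.

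Among genes that serve the pathway, Slc25a38, Slc25a37 and Abcb10 of the inner mitochondrial membrane were called positive, and Clpx, a partner of aminolevulinate synthase, was called negative. The list of mitochondrial transport and cofactor genes had 4 of 17 called positive and 1 negative, with a median of 0.10 in the authors' deposited table. Of all tested genes 6.07% were called positive and 6.11% negative, and 1 negative call of 17 is near that share. Slc25a38, the glycine carrier of erythroid mitochondria, had 0.35 ± 0.11 (adjusted p = 0.0185) in the authors' deposited table. Slc25a37, mitoferrin-1, which imports the iron that Fech uses, had 0.42 ± 0.12 (adjusted p = 0.0121) in the authors' deposited table. Slc25a28, mitoferrin-2, the other iron carrier of the list, had -0.52 ± 0.20 (adjusted p = 0.0658) in the authors' deposited table, and was named after its value was seen. Abcb10, the partner of mitoferrin-1 in the inner membrane, had 0.44 ± 0.12 (adjusted p = 0.00612) in the authors' deposited table. The fourth positive call was Fdxr, ferredoxin reductase, with 0.33 ± 0.11 in the authors' deposited table, named after its value was seen. Clpx, the mitochondrial unfoldase known to act on aminolevulinate synthase, had -0.41 ± 0.09 (adjusted p = 1.41e-04) in the authors' deposited table.

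Among the genes for iron uptake, storage and regulation, 3 of 15 were called positive and none negative in the authors' deposited table, beside 6.07% and 6.11% of all tested genes, and their median was 0.03. The 3 were Tfrc, the transferrin receptor, Steap3, the endosomal iron reductase, and Slc11a2, which carries iron out of the endosome, with 0.67 ± 0.13, 0.40 ± 0.12 and 0.30 ± 0.10 in the authors' deposited table. Transferrin itself, Trf, and the second transferrin receptor, Tfr2, were not called, at -0.22 ± 0.13 and 0.23 ± 0.19 in the authors' deposited table, and were named after their values were seen. Among 11 tested genes for breakdown, export and sensing of heme, 1 was called positive and 1 negative in the authors' deposited table (median 0.0032). Blvrb, a biliverdin reductase abundant in red cells, had 0.55 ± 0.15 (adjusted p = 0.00659) in the authors' deposited table. Nr1d1, a heme-binding nuclear receptor of the circadian clock, had -1.37 ± 0.37 (adjusted p = 0.00449) in the authors' deposited table. Hmox1, the inducible heme oxygenase, had -0.64 ± 0.30 (adjusted p = 0.143) in the authors' deposited table.

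Globin genes, which take up the heme made, had no call among the 3 that were tested. Hba-a1, with a mean count of 311988, stood at 0.0026 ± 0.22 in the authors' deposited table, near the values of Alas2 and Fech. Hba-a2 had -0.37 ± 0.38 and Hbb-bt 0.86 ± 0.36 (adjusted p = 0.0965) in the authors' deposited table. Hbb-bs had 0.45 ± 2.19 at a mean count of 66975, with no p in the authors' deposited table. The globins of embryonic red cells were at or near 0, with mean counts of 1.93 for Hba-x, 1.41 for Hbb-bh1 and 0 for Hbb-y in the authors' deposited table. Globin genes are close copies that can share reads, so their single values are uncertain.

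**Figure D3:**
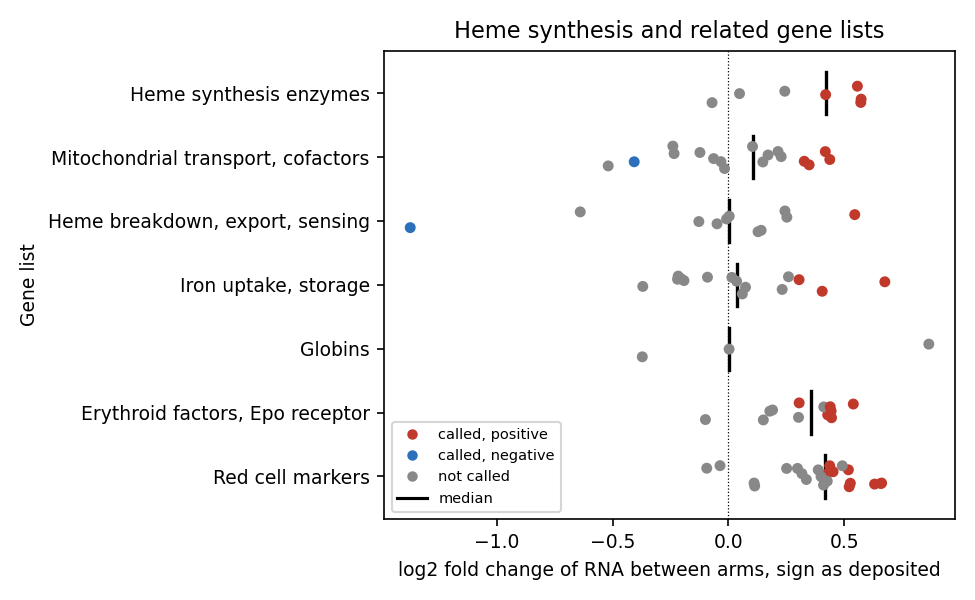
Fold change (log2, sign as deposited) of each tested gene in the heme synthesis enzymes and 6 related lists; each point is a gene, coloured by its call, and the black bar is the list's median. Medians of the heme synthesis enzymes, erythroid factors and red cell markers are 0.42, 0.36 and 0.42, and those of the other 4 lists lie between 0.0026 and 0.10.

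Red cell genes outside the pathway had a like spread of values. Of 22 red cell maturation and membrane markers, 9 were called positive and none negative in the authors' deposited table, with a median of 0.42 and a range of -0.09 to 0.66. Over all tested genes 6.07% were called positive and 6.11% negative. Epb42 and Dmtn, proteins of the red cell membrane skeleton, had 0.63 ± 0.13 and 0.66 ± 0.16 in the authors' deposited table, and Cldn13, a claudin of red cell precursors, had 0.66 ± 0.14. Car1, a carbonic anhydrase of red cells, had -0.09 ± 0.24 in the authors' deposited table, a value near that of Alas2, and was named after its value was seen. Among 12 erythroid transcription factors with the erythropoietin receptor, 6 were called positive and none negative (median 0.36) in the authors' deposited table. Klf1, Tal1 and Epor had 0.54 ± 0.14, 0.44 ± 0.13 and 0.44 ± 0.12 in the authors' deposited table. Gata1 was not called, at 0.30 ± 0.16 (adjusted p = 0.228) in the authors' deposited table, and was named after its value was seen. With the median of the red cell markers subtracted as a fixed value, none of the 4 positive calls of the enzymes remained. Alas2 and Fech were then called negative. Both outcomes follow from the subtraction itself, as that median is near the 0.42 of the 7 enzymes, and are no separate test. The adjusted p (Benjamini-Hochberg over all tested genes on the deposited SE) was then 0.0402 for Alas2, at -0.49, and 0.0356 for Fech, at -0.37. Under that centring 117 of all tested genes were called positive and 8958 negative, against 934 and 941 as deposited.

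Markers of other cell types also differed between the arms, and their part in the enzymes' values was not tested. Of 10 B cell markers, 9 were called positive and none negative (median 1.04) in the authors' deposited table. The shares over all tested genes were 6.07% positive and 6.11% negative. Of 9 skeletal muscle markers, 2 were called negative and all 9 had a negative sign (median -1.37) in the authors' deposited table, as had all 7 stroma and endothelium markers, of which 3 were called (median -0.34). None of 8 neutrophil markers was called (median -0.24), and 2 of 8 osteoblast markers were called positive (median 0.01) in the authors' deposited table. The osteoblast markers were split, with 4 of positive and 4 of negative sign. No marker of these 5 lists had a mean count of 0. Their summed level in each library is not in the tables.

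No m6A peak was listed for any of the 7 enzymes. The authors' deposited peak table held 13083 peaks in 6847 genes, with 0 named after the 7 and 0 that overlapped their gene spans on GRCm38.p6. Of all tested genes 44.3% had a listed peak in the authors' deposited table. Of the 3651 with a mean count at or above that of Uros, 72.0% had one in the authors' deposited table. Among the 500 genes nearest to each enzyme in mean count, the share with a peak lay between 68.4% for Alad and 76.0% for Urod. Alas1 had no listed peak either in the authors' deposited table. Nor had any globin gene listed here, among them Hba-a1 at a mean count of 311988, and only 2 of 8 neutrophil markers had one. The embryonic globins had mean counts below the lowest of 10 classes by mean count, in which 2.34% of genes had a peak. Of the 22 red cell markers, 13 had a peak, as had 7 of 10 B cell markers and all 7 stroma and endothelium markers. A lack of listed peaks was thus not particular to the 7 enzymes. The peak table lists only regions that passed the authors' calling, so m6A below that limit cannot be seen in it. Transcript length, which sets how many sites a transcript can hold, was not used here, and its part in the absence of peaks was not tested. With no peak, neither an enrichment nor a difference of m6A between the arms could be given for the enzymes.

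**Figure D4:**
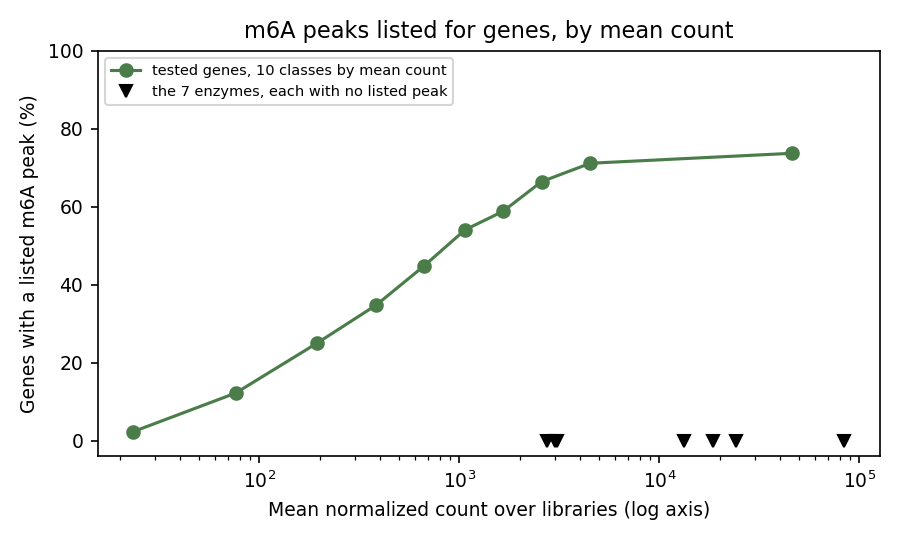
Share of tested genes with at least 1 listed m6A peak (%) in 10 classes of equal size by mean normalized count (log axis, at the geometric middle of each class), with the 7 enzymes as triangles at 0. The share rises from 2.34% in the lowest class to 73.7% in the highest, and the enzymes, at means of 2746 to 83914, have none.

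Within 5000 bases of the gene spans, 2 of the 7 enzymes had a peak, each in a neighbouring gene. A peak of Hectd3, a ubiquitin ligase gene, lay at chr4:116996104-116996930 on the plus strand, 1668 bases from Urod, with an enrichment of IP over input of 1.27 in the authors' deposited table. A peak of Pole3, a DNA polymerase subunit gene, lay at chr4:62523950-62524100 on the minus strand, 3887 bases from Alad, with an enrichment of 2.30 in the authors' deposited table. Neither difference between the arms passed in the authors' deposited table, at log2 values of 0.05 (p = 0.504) and 0.02 (p = 0.771).

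Some genes that serve the pathway had listed peaks, as had 44.3% of all tested genes. Among tested genes with a mean count at or above that of Uros the share was 72.0%. Whether the lists below differ from these shares was not tested. Of the 17 mitochondrial transport and cofactor genes, 7 had 1 peak each, with enrichments of 1.19 to 2.02 in the authors' deposited table, and none of the 7 peaks had a difference p under 0.05, against 4.92% of all peaks. Among them was Abcb10, with a peak at chr8:123954141-123954339, an enrichment of 1.98 and a difference of 0.05 (p = 0.851) in the authors' deposited table. Slc25a38 had a peak at chr9:120124108-120124207, with an enrichment of 1.77 and a difference of 0.12 (p = 0.868) in the authors' deposited table. Of the heme breakdown, export and sensing genes, 4 carried 9 peaks, of which 1 had a p under 0.05 in the authors' deposited table. It lay in Eif2ak1, the kinase that halts globin translation when heme is scarce, at chr5:143873838-143879448 over 4 exon blocks, with a difference of 0.28 (p = 0.0407) in the authors' deposited table. None of the peaks of these 2 lists passed an FDR of 0.05, which 0.0229% of all peaks passed in the authors' deposited table.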

How the data were processed

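Bone RNA of the sham and ovariectomy arms was compared from 2 tables deposited by the authors. HISAT2, StringTie and DESeq are named, per the submitters' processing notes, with no version or role, beside rn6, a rat build; the peak caller is not given in the sources used here. The animals were mice, and of 13026 peaks with a symbol in RefSeq's GRCm38.p6 table, 99.8% lay inside the gene so named. Peak starts were counted from 1.

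Per the file headers, the authors deposited for each gene a mean normalized count (a signal: counts over size factors), a log2 fold change with its SE, a Wald score, and p-values before and after adjustment. The adjustment matched the Benjamini-Hochberg method over 15396 genes. For each peak the authors deposited a p-value, log10 values, the fold enrichment (a ratio), and a log2 difference between arms with a score for its p and FDR. Neither counts nor depth per library are in the tables, so no count model was fitted.

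The threshold was an adjusted p under 0.05 (peak differences: p under 0.05). Intervals are the deposited value ± 1.96 SE. The members and gene lists were chosen with earlier results of these data known. Up to 4 genes per list, by smallest p, all globins and Alas1 were to be named; genes of like pattern could not be sought without values per library. Some further genes are not reported here. The adjustment, the motif search and the shares were computed with Python 3.11.15, numpy 2.4.6, pandas 2.3.3 and scipy 1.17.1. Figures were drawn with matplotlib 3.10.9. The adjustment and the motif search, but not the shares, were tested on simulated data.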

Additional observations from a re-analysis of the deposited data

How the results depend on the processing

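The 4 positive calls among the 7 enzymes stayed 4, the same 4 genes, at adjusted p thresholds of 0.1 and 0.01, with adjustment over all genes with a p or over genes with a mean of at least 50, and with the median of all tested genes subtracted. With the median of the red cell markers (0.42) subtracted, there were 0 positive and 2 negative calls, and the signs of Urod (-0.17) and Fech (-0.37) turned; this follows from the subtraction itself. P-values were also taken from a t distribution with 6 assumed degrees of freedom on the deposited statistic. Then 0 enzymes and 0 of all 15396 genes passed after Benjamini-Hochberg adjustment, the called enzymes standing at 0.225. Before adjustment, 4 enzymes and 2531 genes had a p under 0.05. Widening the search to 5000 bases, chosen after seeing the data, gave 2 peaks, both of other genes. The 3 enzymes with a GATA word were also 3 in the 250 bases before the start alone, a window chosen after seeing the data. For the related lists, 73 counts under the alternatives stayed within 1.5 times and 25 did not. No paired analysis was possible because the tables hold no value for a single library, and no library was left out for that reason. Alternatives for m6A differences, enrichment by expression class and motifs in peaks were not run, since no enzyme had a peak and no genome was used.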

Other observations

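Some red cell genes outside the heme pathway had listed m6A peaks, while the enzymes had none. Of all tested genes 44.3% had a peak, and 72.0% of those with a mean count at or above that of Uros. Of the 22 red cell maturation and membrane markers, 13 carried 41 peaks in the authors' deposited table, and 4 of these had a difference p under 0.05, against 4.92% of all peaks. The peak of Slc4a1, the anion exchanger of the red cell membrane, at chr11:102349720-102349870 had a difference of -0.27 (p = 0.00257) in the authors' deposited table. Of 12 erythroid transcription factors with the erythropoietin receptor, 7 carried 21 peaks, and 3 had a p under 0.05 in the authors' deposited table. The smallest p was that of a peak in Zbtb7a, with -0.43 (p = 0.00646) in the authors' deposited table. Bcl11a, a repressor of fetal globin genes, had 7 listed peaks. Those at chr11:24163971-24164220 and chr11:24167504-24167752 had opposite signs, -0.30 (p = 0.0355) and 0.45 (p = 0.0151) in the authors' deposited table. Its other peaks had a p above 0.05. None of these peaks passed an FDR of 0.05. The peaks named here were chosen after their values were seen.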
